A study of Mus musculus with 32 samples.

Results

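Short annotated 3′ UTR intervals were described in RNA from the mouse amygdala, the forebrain region that processes threat. An interval was a member when its listed end minus its start was at most 300 bp and it held at least 20000 covered thymidines summed over the 26 amygdala libraries. By this rule 525 of 23996 intervals were members, in 471 genes, and 11532 longer intervals reached the same coverage. The rule used length and coverage summed over all groups, and no difference between groups entered it.

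The libraries came from wild-type mice whose strain, age and stressor are not named in the labels. Each animal received 4-thiouridine (4sU, 100 mM in DMSO) or DMSO alone by stereotaxic injection into the amygdala 24 h before the RNA was extracted from both amygdalae, and all RNA was alkylated. Under baseline conditions there were 5 libraries with 4sU and 4 with DMSO, under acute stress 5 and 5, and under chronic stress 4 and 3. The labels do not say whether each library came from a separate animal, and a p-value here reflects the spread among these libraries.

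A 3′ UTR is the part of an mRNA after the stop codon, where microRNAs and RNA-binding proteins act on stability and translation. In SLAM-seq, RNA made after the injection carries 4sU, alkylation makes the reverse transcriptase read the analogue as C, and T-to-C conversions per covered T mark newly made RNA. Genes for abundant housekeeping proteins, such as subunits of the ribosome and of the respiratory chain, often have very short 3′ UTRs. A short interval offers few T, and a read may lie only partly within it.

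Members were 8 to 300 bp long with a median of 230 bp, against a median of 1503 bp for the other covered intervals. Of the members, 332 measured over 200 bp, 60 measured up to 100 bp and 35 up to 50 bp. The median share of T was 28.1% in members and 29.3% in the others. A read in a member covered a median of 19.0 T, against 35.4 in the others, and the median member held 2246 reads against 6774. Of all 7316 intervals within the length limit, 6791 lay below the coverage minimum and 2195 had no read in any library. Thus 7.18% of short intervals were covered well enough, against 69.1% of 16680 longer ones. At the length limit stood Rev1 and Clcc1, both 300 bp and inside, with Mrps6 and Psmd12 outside, 1 and 2 bp longer. At the coverage minimum stood Rarres2 with 20207 and 0610010K14Rik with 20255 covered T inside, and Hypk with 19952 and Vamp8 with 19907 outside.

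The annotation of members differed from that of longer intervals. A member was the sole interval of its gene in 271 cases, 51.6% against 64.4% of the others, and 156 members shared a gene with other intervals. The remaining 98 members (18.7%, against 8.86% of the others) overlapped an exon of another gene, 83 on the opposite and 15 on the same strand. The sources used here do not say whether the libraries kept strand, so reads of such pairs cannot be told apart here. Members of 1 gene also share reads where they overlap. The 12 most covered members held 25.2% of all covered T in members. The 8 Gnas and 7 Snurf intervals alone held 21.9%. Gnas encodes the stimulatory G protein alpha subunit and Snurf is the paternally expressed upstream frame of the Snrpn transcript. All 7 Snurf intervals overlap exons of the long RNA gene Snhg14.

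By function, 23 members came from respiratory chain and ATP synthase genes, 10 from mitochondrial ribosomal protein genes and 6 from the proteasome. A list of genes of microglia and antigen presentation gave 6. Tubulins, neuropeptides and spliceosome genes gave 4 each, and all 3 metallothionein intervals were members. Only 3 of 104 cytosolic ribosomal protein intervals were members, although 81 were within the length limit. No haemoglobin, immediate early gene or choroid plexus interval was a member.

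Members received 81198 to 164993 reads per library out of 6361216 to 9438303 in all intervals. The file headers number the libraries in 2 series, one of 10 libraries, which are all baseline and acute 4sU libraries, and one of 16, which are all others. Members took 1.33 to 1.56% of reads in the first series. In the second they took 1.05 to 1.19%, apart from the acute DMSO replicate 2 with 1.75%. A read in the other intervals also covered 34.7 to 35.1 T in one series and 37.2 to 37.8 in the other. Any comparison that crosses the series cannot be told apart from it, and each is named as such below. Exon counts per gene from the same libraries, 16150316 to 21228741 per library, served as a second measure of each member's gene. Of the markers that check the tissue, Gad1, of inhibitory neurons, stood at 581 to 1030 exon CPM and Slc17a7, of excitatory neurons, at 15.6 to 890. The 6 excitatory markers together were low in 5 libraries (acute DMSO replicates 1, 3 and 4, chronic 4sU replicate 3 and chronic DMSO replicate 1).

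**Figure D1:**
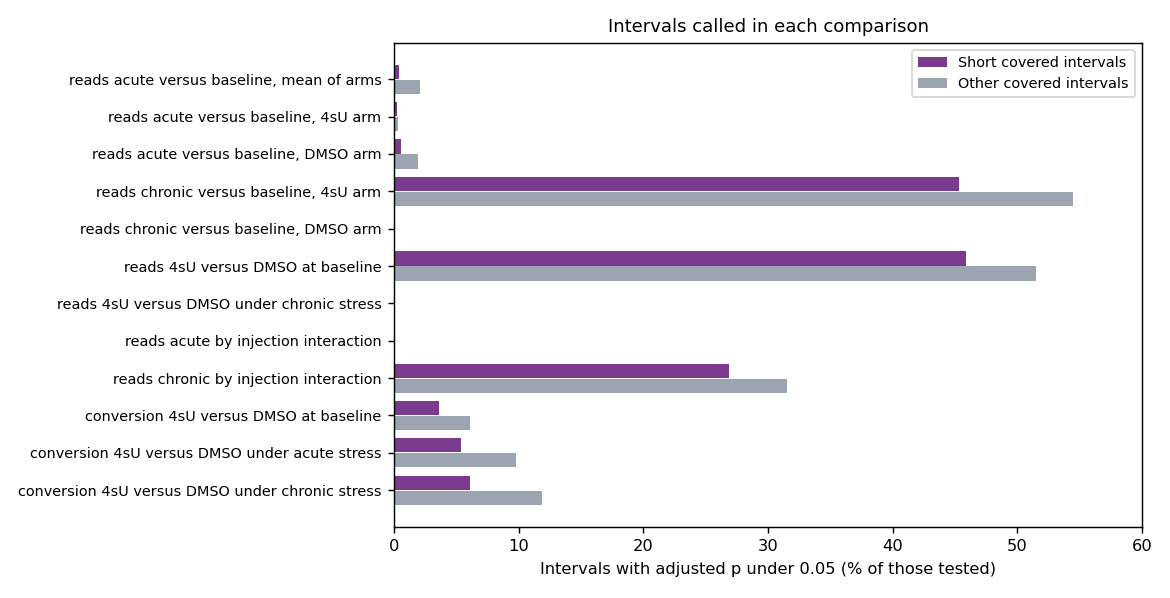
Share of intervals called at an adjusted p under 0.05 in each comparison, for the 525 short intervals and for all other covered intervals (edgeR, Benjamini-Hochberg adjustment over all intervals tested). The short intervals reached 45.3% in the chronic 4sU comparison and 45.9% in the injection comparison at baseline, both of which cross the 2 header series, and at most 3 members in any comparison of reads between acute stress and baseline.

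Acute stress against baseline was compared first, because within each injection the libraries belong to 1 header series. Reads were tested with edgeR's quasi-likelihood test over 15713 intervals, with p-values adjusted by the Benjamini-Hochberg method. Averaged over both injections, 2 members rose and none fell, where 1.61% of all intervals tested were called in either direction. The 2 were a 38 bp interval of Ptgds and the interval of Mt2. In the 4sU arm 1 member rose (0.223% of all intervals called) and in the DMSO arm 3 rose (1.45% called). The median log2 fold change averaged over injections was 0.06 for members and 0.01 for all intervals.

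Ptgds encodes the lipocalin-type prostaglandin D synthase, made in the brain by leptomeninges, choroid plexus and oligodendrocytes. Its 38 bp interval lies at mm10 chr2:25467287-25467324 on the minus strand and is one of several intervals of the gene. With 4sU it stood at 8.12, 8.06, 7.49, 9.19 and 9.75 CPM (interval reads scaled to the library's size by edgeR, with TMM factors) at baseline and at 35.0, 32.0, 26.6, 26.5 and 24.9 under acute stress. With DMSO it stood at 9.72, 10.4, 13 and 26.1 CPM at baseline and at 40.5, 62.1, 65.6, 43.0 and 49.2 under acute stress. In each arm the lowest acute library lay above the highest baseline library, and the groups did not overlap. The rise was 1.76 ± 0.24 on the log2 scale with 4sU (SE, adjusted p = 0.000365, edgeR) and 1.82 ± 0.24 with DMSO (adjusted p = 0.000186, edgeR). Averaged, it was 3.46-fold (log2 1.79 ± 0.17, adjusted p = 3.27e-07, edgeR), and it lay between 1.71 and 2.00 when any library was left out. Chronic libraries stood at 10.6, 20.7, 25.4 and 20.7 CPM with 4sU and at 14.7, 11.6 and 10.6 with DMSO.

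The rest of Ptgds did not move by the same amount. Exon counts of the whole gene changed by 0.36 on the log2 scale (adjusted p = 0.138, edgeR). The second short interval of Ptgds, 119 bp at chr2:25466712-25466830, changed by 0.38 ± 0.18 (adjusted p = 0.422, edgeR). As a percent of the gene's exon CPM, the CPM of the 38 bp interval was 2.00 to 3.01% in baseline 4sU and 6.32 to 9.07% in acute 4sU libraries. Interval CPM and exon CPM are scaled to different totals, so this ratio is not a share of reads. With DMSO the ratio was 2.30 to 5.29% at baseline and 6.25 to 11.8% under acute stress. For the 119 bp interval the ratio was 1.48 to 2.36% and 1.80 to 2.60% with 4sU, ranges that overlap. Markers of the cells that make Ptgds varied too. The summed exon level of the 3 choroid plexus markers was 2392 to 3345 CPM over all baseline libraries, 1511 to 3179 in acute 4sU and 11.5 to 5504 in acute DMSO libraries. The 5 oligodendrocyte markers summed to 5716 to 8075 CPM in baseline 4sU and 6680 to 8503 in acute 4sU. With DMSO they summed to 11828 to 15153 at baseline and 15880 to 25510 under acute stress. Their part in the Ptgds values was not tested. In bulk RNA, more cells of a type and more RNA per cell cannot be told apart.

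**Figure D2:**
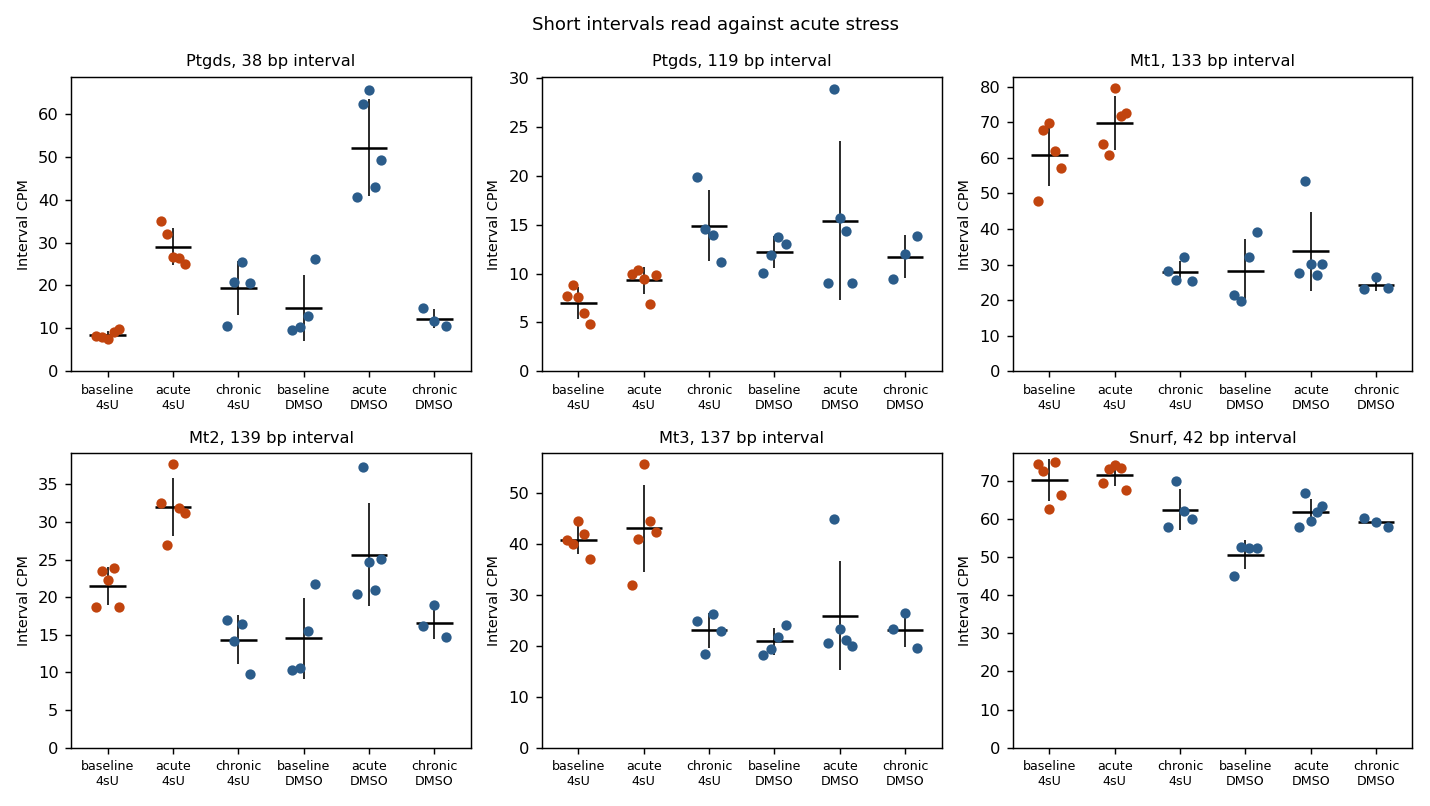
Interval CPM in every library for the 2 Ptgds intervals, the 3 metallothioneins and the 42 bp Snurf interval, by group; points are libraries (orange the series of 10, blue the series of 16) and bars give mean ± SD. The 38 bp Ptgds interval is above the baseline range of the same injection in all acute libraries, up to 65.6 CPM in acute DMSO.

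The metallothioneins Mt1, Mt2 and Mt3 bind zinc and copper and lie next to each other on chromosome 8. Mt1 and Mt2 are induced by metals and by glucocorticoids, and Mt3 is the brain form. Each has 1 interval, of 133, 139 and 137 bp. Metals act on Mt1 and Mt2 through metal response elements, short motifs in the promoter bound by the factor MTF-1. The promoters are shown because all 3 genes are members and were read together. RefSeq promoter sequence (GRCm38.p6, plus strand, 250 bases before to 50 after the gene start) was searched on both strands for the cores TGCACNC and TGCGCNC. Of the 471 member genes, 388 matched a promoter. The motif cores are in capitals in these 30-base pieces.
Mt1 chr8:94179088-94179117: ctcTGCACTCcgcccgaaaagTGCGCTCgg
Mt2 chr8:94172610-94172639: agaattcgggtcGTGCGCAggcccaggggc
Mt3 chr8:94152622-94152651: tcgggacagcagTGCACACacacggagagc
The whole windows held 3 cores in Mt1, 4 in Mt2 and 1 in Mt3, and none in Ptgds. Counted per promoter, at least 1 core stood in 25.7% of 32851 promoters. Counted per gene by its promoter with the most cores, it stood in 39.7% of the 388 member genes. At least 3 cores stood in 1.97% of all promoters and, per gene, in 3.61% of those member genes. A gene can have several promoters, so the shares per promoter and per gene are not alike and show neither an excess nor its absence. A match describes letters and is not a binding site.

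Of these genes, the Mt2 interval passed the acute test. With 4sU it stood at 18.8, 23.5, 22.3, 23.9 and 18.7 CPM at baseline and at 32.5, 26.9, 37.7, 31.9 and 31.2 under acute stress. With DMSO it stood at 10.3, 10.6, 15.5 and 21.7 CPM at baseline and at 20.4, 37.3, 24.7, 20.9 and 25.1 under acute stress. The groups were apart with 4sU, and with DMSO 1 baseline library lay above the 2 lowest acute libraries. The average rise was 1.63-fold (log2 0.70 ± 0.13, adjusted p = 0.00257, edgeR). It was 0.83 ± 0.20 in the DMSO arm (adjusted p = 0.0239, edgeR) and 0.58 ± 0.18 in the 4sU arm (adjusted p = 0.418, edgeR). The call in the DMSO arm was lost without baseline DMSO replicates 1, 2 or 3 or acute DMSO replicate 3, at 0.70 to 0.86, while the average passed without any library. Exon counts of Mt2 rose as well, by 0.62 (adjusted p = 0.00836, edgeR). The intervals of Mt1 and Mt3 changed by 0.23 ± 0.13 and 0.20 ± 0.13, with adjusted p of 0.532 and 0.628 (edgeR).

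Snurf gave the third call of the DMSO arm, in its 42 bp interval at chr7:59995406-59995447. It stood at 44.9, 52.7, 52.4 and 52.4 CPM at baseline and at 58.0, 66.8, 59.4, 61.9 and 63.3 under acute stress, and the groups did not overlap. The rise was 0.29 ± 0.08 on the log2 scale (adjusted p = 0.0449, edgeR). The call was lost in 20 of 26 fits that left out 1 library each. With 4sU the same interval stood at 62.7 to 75 CPM at baseline and 67.5 to 74.1 under acute stress, which overlap.

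No member was called in the interaction of acute stress with injection, nor was any other interval (0.0% of all). The 4sU arm of this interaction lies in the smaller header series and the DMSO arm in the larger. Injection and series therefore cannot be told apart in this interaction, whichever libraries are used. At an unadjusted p under 0.05, 21 members and 815 intervals passed, and DESeq2 also called none. The acute counts rested on the libraries used. Without acute DMSO replicate 2 there were 4 called members on average and 6 in the DMSO arm, where 2.97% and 3.15% of all intervals were called. Without acute DMSO replicate 5 there were 4 and 9, with 2.08% and 2.85% of all intervals. Without the 5 libraries low in glutamatergic markers there were 13 and 39, with 3.32% and 7.21% of all intervals, and the interaction called 4 members and 0.548% of all intervals.

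Chronic stress against baseline gave opposite pictures in the 2 arms. With DMSO, where both groups belong to the series of 16, no member and no other interval was called (0.0%). At an unadjusted p under 0.05, 12 members and 386 intervals passed, and DESeq2 called none. With 4sU, where the comparison crosses the header series, 102 members were higher and 136 lower, 45.3% of members against 46.8% of all intervals tested. Of all intervals 24.5% were called higher and 22.3% lower. The median log2 fold change was −0.10 in members and 0.00 over all intervals. Among the other covered intervals 54.4% were called.

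The injections differed in the same pattern. At baseline, where 4sU against DMSO crosses the series, 150 members were higher and 91 lower with 4sU, 45.9% against 44.3% of all intervals and 51.5% of the other covered ones. Over all intervals 21.5% were higher and 22.7% lower. Under chronic stress, where both groups belong to 1 series, no interval was called (0.0%), with 10 members and 598 intervals at an unadjusted p under 0.05 and none by DESeq2. The interaction of chronic stress with injection called 66 members higher and 75 lower, 26.9% against 25.9% of all intervals (14.6% higher, 11.3% lower) and 31.5% of the other covered ones. The baseline 4sU libraries, of the smaller series, enter the chronic 4sU comparison, the baseline injection comparison and this interaction, so these share samples, and group and series cannot be told apart in them.

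The Gnas intervals are an example. The 39 bp interval at chr2:174334245-174334283 stood at 193, 199, 174, 196 and 182 CPM in baseline 4sU and at 199, 196, 193, 171 and 189 in acute 4sU libraries. It stood at 69.0, 63.1, 69.1 and 62.3 CPM in baseline DMSO, 66.1, 66.7, 68.1, 61.9 and 67.1 in acute DMSO, 74.4, 68.6, 58.2 and 52.2 in chronic 4sU, and 61.7, 61.4 and 60.5 in chronic DMSO. All 10 libraries of one header series were thus above all 16 of the other. The injection difference at baseline was 2.87-fold (log2 1.52 ± 0.08, adjusted p = 1.93e-13, edgeR), the chronic difference with 4sU −1.58 ± 0.08 (adjusted p = 7.22e-14, edgeR). Within the series of 16 the injection difference under chronic stress was 0.05 ± 0.09 and the chronic difference with DMSO −0.11 ± 0.09, neither called. All 8 Gnas intervals were lower in the chronic 4sU comparison, by −1.58 to −0.72 on the log2 scale, and all 8 higher with 4sU at baseline, by 0.77 to 1.58. Exon counts of Gnas fell by 0.64 and rose by 0.75 in the same comparisons. These intervals share a gene and are not independent. The 7 Snurf intervals ranged from −0.99 to 0.08 (3 called lower) and from −0.05 to 1.05 (5 called higher).

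**Figure D3:**
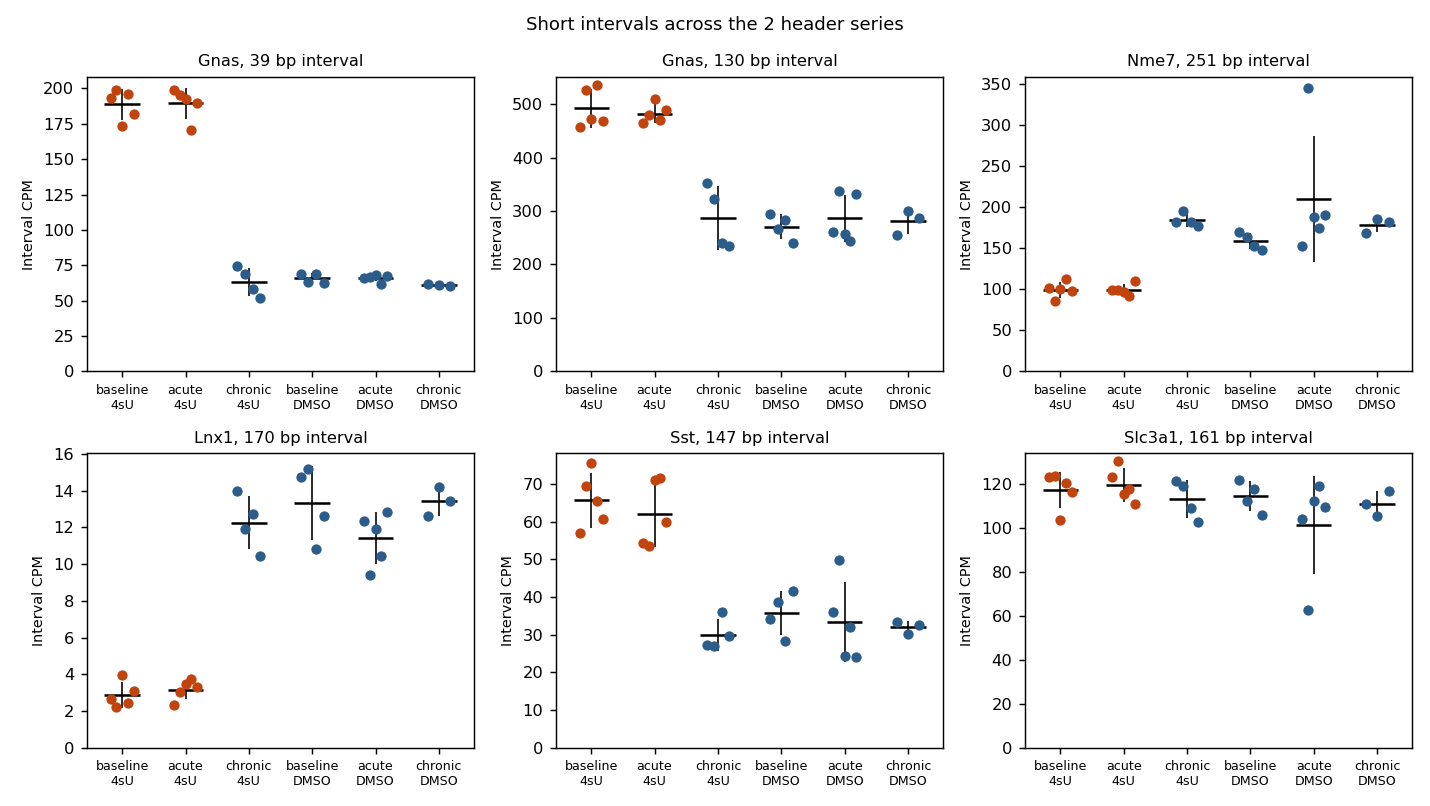
Interval CPM in every library for 2 Gnas intervals, Nme7, Lnx1, Sst and Slc3a1, by group; points are libraries (orange the series of 10, blue the series of 16) and bars give mean ± SD. The 10 libraries of the smaller series lie together, as for the 39 bp Gnas interval at 171 to 199 CPM, while the series overlap for Slc3a1.

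Some members that overlap another gene's exon moved the other way. Lnx1, an E3 ubiquitin ligase gene, has a 170 bp interval at chr5:74597104-74597273 that overlaps an exon of Fip1l1. It stood at 2.66, 2.21, 3.96, 2.45 and 3.1 CPM in baseline 4sU against 14.8, 15.2, 10.8 and 12.6 in baseline DMSO, with no overlap. Chronic 4sU libraries stood at 14.0, 11.9, 12.7 and 10.5 CPM. The injection difference at baseline was −2.21 ± 0.17 (adjusted p = 4.69e-11, edgeR) and the chronic difference with 4sU 2.08 ± 0.17 (adjusted p = 1.03e-10, edgeR). Exon counts of Lnx1 changed by −0.08 and 0.11 and were not called. Rmc1, a subunit of the complex that activates Rab7, overlaps Npc1. Its 83 bp interval had an injection difference of −2.03 ± 0.23 and a chronic difference of 2.35 ± 0.23, while its exon counts moved the opposite way, by 0.37 and −0.40, and all 4 values were called (edgeR). Ccdc175, whose interval overlaps Jkamp, gave −1.68 ± 0.22 and 1.9 ± 0.22 (adjusted p = 4.19e-07 and 4.03e-08, edgeR). Not every overlapping member differed: the interval of Slc3a1, over an exon of Prepl, gave 0.04 ± 0.11 and −0.06 ± 0.11. Among the 98 overlapping members, 29 were called higher and 19 lower in the chronic 4sU comparison, with a median of 0.01, beside 24.5% and 22.3% of all intervals. Among the 271 sole intervals, 50 were higher and 69 lower.

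Members without such an overlap also moved. Cwc15, a spliceosome component with a sole interval of 290 bp, gave −1.58 ± 0.27 for injection at baseline and 1.75 ± 0.27 for chronic stress with 4sU (adjusted p = 3.00e-05 and 5.69e-06, edgeR). Its exon counts changed in the same directions, by −0.32 and 0.45. An exon test was available for 504 members. Interval and exon calls in the chronic 4sU comparison coincided in direction for 143 members and were opposite for 10. Calls were made for the interval alone, also where no exon test was available, in 85 and for exons alone in 131. At baseline the injection comparison gave 136, 6, 99 and 109, and the interaction gave 48, 1, 92 and 89. Such counts were not made for longer intervals, so they show no trait of short ones.

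Among the functional groups, the metallothioneins fell together in the chronic 4sU comparison: all 3 were called lower, with a median of −0.82 against 0.00 over all intervals, of which 22.3% were called lower. Mt1 stood at 48.0, 67.9, 69.7, 61.9 and 57.3 CPM in baseline 4sU and at 28.3, 25.8, 32.2 and 25.4 in chronic 4sU libraries, and the groups did not overlap. Baseline DMSO libraries stood at 21.6, 19.9, 32.1 and 39.3 CPM. The chronic difference was −1.13 ± 0.19 for Mt1, −0.58 ± 0.20 for Mt2 and −0.82 ± 0.19 for Mt3 (adjusted p = 2.07e-05, 0.0176 and 0.000795, edgeR). With 4sU at baseline all 3 were higher, by 1.11, 0.56 and 0.97, where 21.5% of all intervals were called higher. In the chronic comparison with DMSO none was called. Marker levels also differed, with baseline 4sU libraries apart from both other groups. The 4 astrocyte markers summed to 757 to 865 exon CPM in baseline 4sU, 1058 to 1134 in baseline DMSO and 981 to 1399 in chronic 4sU libraries. The 6 glutamatergic markers summed to 2369 to 3221, 1629 to 2140 and 1297 to 2238 CPM. Their part in these changes was not tested.

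Of 23 respiratory chain and ATP synthase members, 5 rose and 1 fell in the chronic 4sU comparison, where 24.5% of all intervals were called higher and 22.3% lower. Ndufc2 and Ndufa10 of complex I, Uqcrb of complex III, Cox6c of complex IV and Cox20, an assembly factor of complex IV, rose by 1.16, 0.44, 0.87, 0.89 and 1.00, and Atp5b, the ATP synthase beta subunit, fell by 0.44. Of the 10 mitochondrial ribosomal members 3 fell, Mrps18a by 1.08 ± 0.16 (adjusted p = 2.52e-06, edgeR), Mrpl58 by 1.03 and Mrpl27 by 0.44, and none rose. A count of 3 in 10 is near the 22.3% of all intervals called lower. The Mrps18a interval stood at 14.8, 16.6, 15.6, 15.3 and 15.5 CPM in baseline 4sU and at 7.04, 7.62, 7.11 and 7.57 in chronic 4sU libraries. In baseline DMSO it stood at 7.57, 5.95, 7.39 and 8.92 CPM, so that the baseline 4sU group was apart from both. With 4sU at baseline 1 respiratory member was called higher and 4 lower, and 4 mitochondrial ribosomal members were called higher. In that comparison 21.5% of all intervals were called higher and 22.7% lower. In the acute comparison, none of these 33 members was called.

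The proteasome subunits Psma2 and Psma4 rose by 0.80 and 0.74 in the chronic 4sU comparison, and the other 4 proteasome members did not pass, where 24.5% of all intervals were called higher. Of the 3 V-type ATPase members, which acidify vesicles, Atp6v1f and Atp6v0e2 fell by 0.82 and 0.70, where 22.3% of all intervals were called lower. Sst, the peptide of a class of inhibitory neurons, was the called neuropeptide of 4. Its 147 bp interval stood at 57.0, 69.5, 75.4, 65.4 and 60.7 CPM in baseline 4sU, 34.2, 38.7, 28.3 and 41.5 in baseline DMSO, and 27.2, 26.9, 36.0 and 29.7 in chronic 4sU libraries. The chronic difference was −1.13 ± 0.16 (adjusted p = 2.25e-06, edgeR), and exon counts of Sst fell by 0.96. Of the 6 members of the microglia and antigen presentation list, C1qa, a complement component, fell by 1.09. Ctss of that list, the protease cathepsin S, rose by 0.65. With 46.8% of all intervals called in either direction, 1 of 4 neuropeptides and 2 of 6 members of that list is no larger a share. All of these comparisons cross the header series, and in the chronic DMSO comparison no member of these lists was called.

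Conversion rates were read next. Pooled over members, T-to-C conversions per 10000 covered T were 8.01 to 11.1 in baseline 4sU and 5.16 to 6.46 in baseline DMSO libraries. Under acute stress they were 8.09 to 12.2 with 4sU and 4.82 to 5.22 with DMSO, and under chronic stress 9.02 to 13.5 and 4.82 to 5.71. Every 4sU library was above every DMSO library. The other covered intervals had lower pooled rates with either injection, 3.97 to 7.75 over all 4sU libraries and 2.26 to 3.15 over all DMSO libraries, again without overlap. The median rate per interval differed from this. For members it was 0 in every baseline 4sU library, against 2.17 to 2.69 for the others, and 3.47 to 6.66 against 2.70 to 3.49 in chronic 4sU. In acute 4sU and in baseline, acute and chronic DMSO its group median was 0, 0.775, 0 and 0 for members. For the others it was 2.34, 2.16, 1.81 and 1.98. The medians of members rest on few counts, as the median member had 11 conversions in all 4sU libraries together and 9 in all DMSO libraries. A median of 0 in a library is thus limited by depth. The mice of the DMSO libraries received no 4sU, so their rate is the background of the measure.

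**Figure D4:**
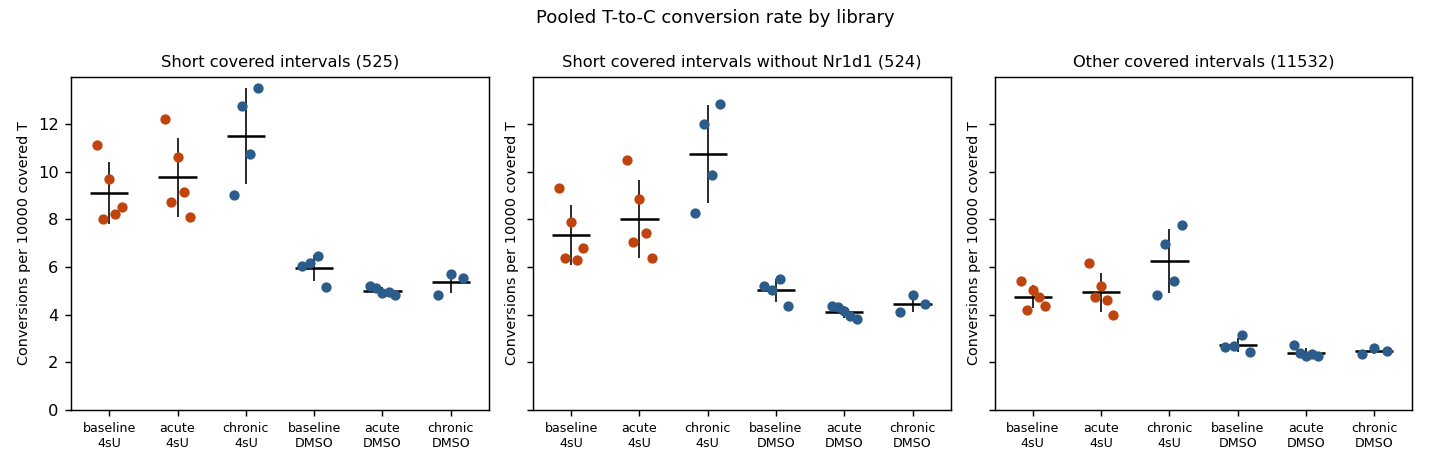
Pooled T-to-C conversion rate per 10000 covered T in every library, for the short intervals, the short intervals without Nr1d1 and the other covered intervals; points are libraries (orange the series of 10, blue the series of 16) and bars give mean ± SD. The pooled rates of short intervals lie higher in both injections, at 4.82 to 6.46 with DMSO against 2.26 to 3.15 in the other intervals.

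One interval had a far higher rate than the other members. Nr1d1 encodes the clock repressor REV-ERB alpha, and its 287 bp interval at chr11:98767932-98768218 overlaps an exon of Thra on the opposite strand, a well-known pair of overlapping genes. Its rate was 161, 214, 191 and 165 per 10000 covered T in baseline DMSO, 169, 184, 154, 194 and 208 in acute DMSO, and 163, 169 and 211 in chronic DMSO libraries. It was 234, 245, 260, 263 and 254 in baseline 4sU, 238, 236, 273, 276 and 260 in acute 4sU, and 205, 180, 178 and 177 in chronic 4sU libraries. This was the highest DMSO rate of all covered intervals. The interval held 0.576% of the members' covered T but 15.3% of their conversions with 4sU and 17% with DMSO. The 4sU difference was 0.46 at baseline, 0.50 under acute and 0.03 under chronic stress (adjusted p = 0.298, 0.121 and 0.990, edgeR), none called. Its reads also followed the header series, at 112 to 138 CPM in the series of 10 and 49.6 to 77.4 in the series of 16. Without Nr1d1 the members' pooled rate was 6.30 to 9.30 against 4.34 to 5.48 at baseline, 6.36 to 10.5 against 3.82 to 4.37 under acute stress and 8.28 to 12.8 against 4.10 to 4.84 under chronic stress, with 4sU first, and the groups stayed apart. These DMSO rates were still above the 2.26 to 3.15 of the other intervals.

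Nr1d1 was one of 48 members (9.14%) that had over 10 conversions per 10000 covered T in the pooled DMSO libraries, against 64 (0.555%) of the other intervals. These shares rest on unlike depth: the median member held 38483 covered T and the median other interval 231803. Prdx5, a peroxiredoxin, had the second highest DMSO rate of the members, 31.7 against 17.5 with 4sU in its 148 bp interval. Swi5, a recombination factor, had 30.9 with DMSO. By annotation, sole intervals stood at 5.90 to 9.09 with 4sU and 5.40 to 7.11 with DMSO at baseline, which overlap. They were apart under acute stress (5.76 to 9.78 against 4.91 to 5.74) and under chronic stress (10.1 to 13.8 against 5.28 to 6.14). Members that shared a gene with other intervals were apart in every condition, with 6.24 to 10.3 against 3.45 to 4.95 at baseline. So were members over another gene's exon, with 14.5 to 16.4 against 6.14 to 7.36 at baseline, except that under chronic stress the lowest 4sU value, 7.89, lay just below the highest DMSO value, 7.90. Without Nr1d1 they were apart in every condition, with 5.02 to 7.71 against 2.51 to 3.20 at baseline. The depth behind single members was low: the median member had 11 conversions in all 4sU libraries together and 9 in all DMSO libraries. Over all members, 325 of 525 had the higher pooled rate with 4sU. The same count was not made for the other covered intervals, so it shows no trait of short intervals.

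Conversions were tested with edgeR's quasi-likelihood test over 12042 intervals, with covered T as the offset. At baseline 16 members were higher and 3 lower with 4sU, 3.62% against 5.97% of all intervals. Under acute stress 27 were higher and 1 lower (5.33% against 9.6%), and under chronic stress 32 were higher and none lower (6.10% against 11.6%). In the same order, the called members came from 10, 15 and 21 genes, and intervals of 1 gene are not independent. The median log2 difference of members was 0.00, 0.15 and 0.88, and that of all intervals 0.15, 0.33 and 0.59. The baseline and acute comparisons cross the header series, and the chronic comparison lies within the series of 16.

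Gnas and Snurf were called in all 3 conditions. The 130 bp Gnas interval at chr2:174345649-174345778, the most covered member, had 15.9, 6.60, 9.53, 5.32 and 7.45 conversions per 10000 covered T in baseline 4sU and 1.51, 1.24, 3 and 1.08 in baseline DMSO libraries. Under acute stress it had 11.7, 9.49, 10.9, 11.9 and 8.66 with 4sU and 2.16, 2.05, 1.67, 1.68 and 2.86 with DMSO. Under chronic stress it had 9.15, 12.9, 11.1 and 15.5 with 4sU and 0.977, 1.4 and 3.75 with DMSO. No 4sU library overlapped a DMSO library in any condition. The differences were 2.36 ± 0.32, 2.31 ± 0.28 and 2.55 ± 0.36 on the log2 scale (adjusted p = 3.42e-11, 3.83e-14 and 7.63e-11, edgeR). The 151 bp Snurf interval gave 3.03, 2.75 and 2.58 (adjusted p = 2.13e-10, 3.18e-13 and 1.73e-07, edgeR). Of the 8 Gnas intervals 7, 8 and 8 were called, and of the 7 Snurf intervals 4, 5 and 5.

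**Figure D5:**
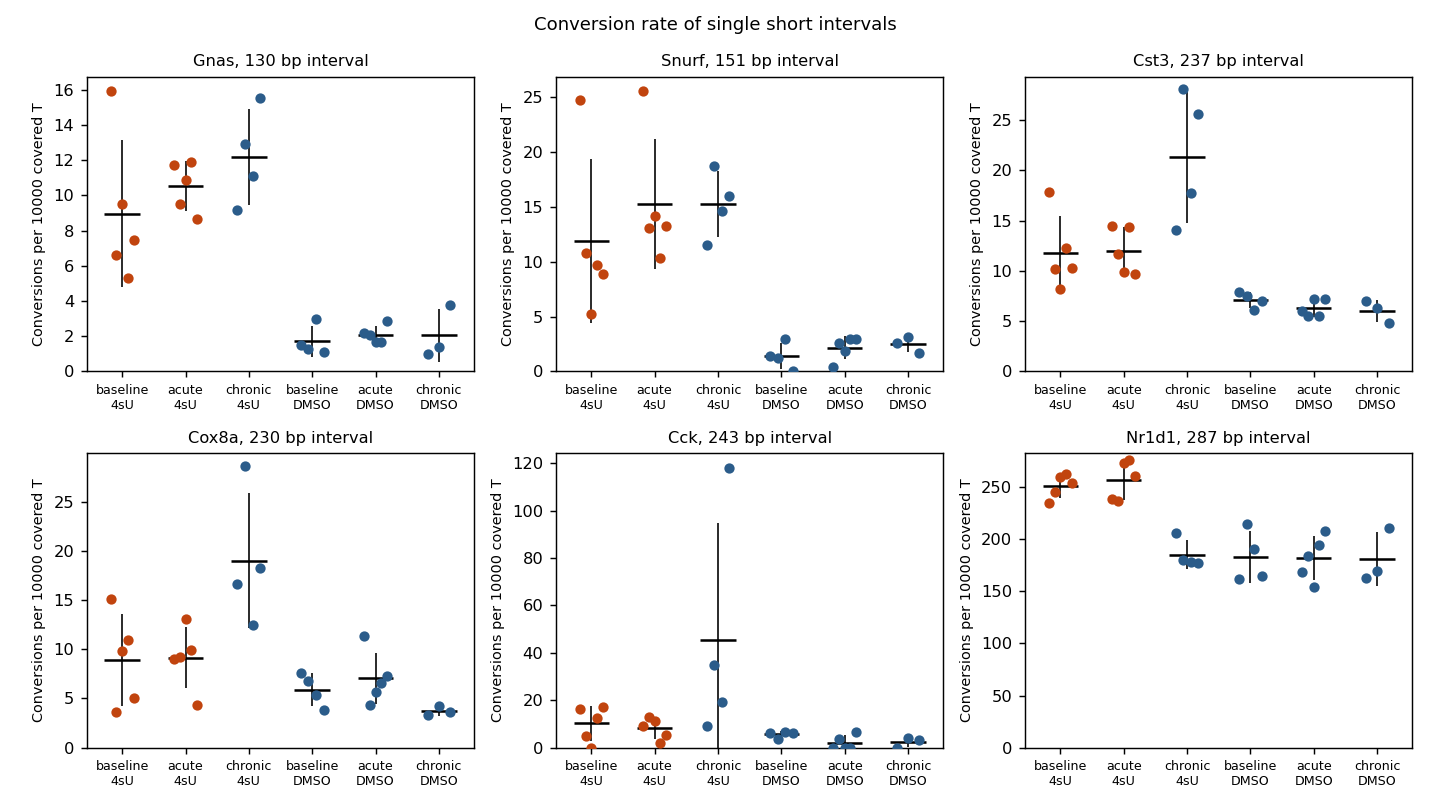
T-to-C conversions per 10000 covered T in every library for intervals of Gnas (130 bp), Snurf (151 bp), Cst3, Cox8a, Cck and Nr1d1, by group; points are libraries (orange the series of 10, blue the series of 16) and bars give mean ± SD. Gnas and Snurf intervals are apart between injections in every condition, while Nr1d1 stands at 154 to 276 in all libraries.

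Several abundant transcripts were called under chronic stress. Cox8a, a respiratory chain subunit, had 16.6, 28.6, 12.5 and 18.3 conversions per 10000 covered T with 4sU against 3.31, 4.22 and 3.59 with DMSO, a difference of 2.32 ± 0.44 (adjusted p = 3.53e-06, edgeR). At baseline its rates were 3.66 to 15.1 and 3.79 to 7.57, which overlap, with a difference of 0.61 (adjusted p = 0.510, edgeR). Rpl41, a small ribosomal protein, had 9.51, 27.3, 11.8 and 13.9 with 4sU against 1.65, 2.70 and 2.87 with DMSO under chronic stress, a difference of 2.66 ± 0.50 (adjusted p = 2.65e-06, edgeR). Cst3, the protease inhibitor cystatin C, had 14.0, 28.1, 17.7 and 25.6 against 6.97, 6.32 and 4.84, a difference of 1.80 ± 0.38 (adjusted p = 4.51e-05, edgeR). In all of these genes the chronic 4sU libraries lay above the chronic DMSO libraries. Pcp4, a calmodulin regulator, and Aldoa, the glycolytic aldolase, were called with differences of 2.44 and 2.02. Whether the 4sU difference itself changed between baseline and chronic stress was not tested. Of the lists under chronic stress, 3 of 23 respiratory chain, 1 of 3 cytosolic ribosomal and 1 of 4 neuropeptide members were called higher. So were 2 of 6 members of the microglia and antigen presentation list, and none of the 10 mitochondrial ribosomal members. Of all intervals 11.6% were called.

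Calls on few conversions rested on single libraries. Cck, the neuropeptide cholecystokinin, had 9.27, 34.7, 19.3 and 118 conversions per 10000 covered T in chronic 4sU libraries and 0, 4.02 and 3.07 with DMSO (3.64 ± 0.93, adjusted p = 0.00129, edgeR). Without chronic 4sU replicate 4 the difference was 2.63 and not called. Fcer1g, a microglial receptor chain, had 18.5, 26, 87.3, 22.7 and 61.3 in baseline 4sU against 0, 17.6, 0 and 0 in baseline DMSO (3.19 ± 0.82, adjusted p = 0.00269, edgeR), and the call was lost without baseline 4sU replicate 3. For Ctss the baseline rates were 6.98, 18.1, 34.8, 17.6 and 87.8 with 4sU and 3.34, 0, 8.18 and 0 with DMSO (3.51 ± 0.90, adjusted p = 0.00233, edgeR), and its call was lost without baseline 4sU replicate 5. In Ubb, a polyubiquitin gene called under acute stress, 11 of 14 acute 4sU conversions came from replicate 1. The members called lower with 4sU were Ldhb (187 bp), Tubb2a and Atp6v0b at baseline and Arpc3 under acute stress, with differences of −1.53, −2.15, −2.27 and −4.04.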

How the data were processed

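Reads, reads with a T-to-C conversion, covered T and conversions per annotated 3′ UTR interval were deposited by the authors as raw counts, with the conversion rate as a fraction of covered T, written by slamdunk 0.4.3, per the file headers. Exon counts per gene were deposited by the authors as well. Among the tools in the submitters' processing notes are featureCounts 2.0.1, cutadapt 3.1, SAMtools 1.9 and HISAT2 2.1.0, with mm10 as build. The sources used here give neither strand nor multimapping settings, and no read is listed as multimapping. A row's start counts from 0 in the files and from 1 here.

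Interval reads and exon counts were fitted with edgeR 4.0.16 (quasi-likelihood, robust, TMM scaling, filterByExpr, 1 coefficient for each of 6 groups, all 26 libraries) in R 4.3.3. Conversions were fitted likewise with the logarithm of covered T as offset, over intervals with at least 20000 covered T. Errors of fitted changes are SE on the log2 scale. P-values were adjusted over all intervals tested with a threshold of 0.05. DESeq2 1.42.0 was an alternative. Tables were joined with Python 3.11.15 and pandas 2.3.3. The fits were tested on simulated data. Auditory cortex libraries were not analysed here.

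Replicates differed by 2.66 to 71.4 times sampling noise (chi-square per degree of freedom), so no pair was counted as 1 library.

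The members and lists were chosen with earlier results of these data known. Members named in the text are among the 12 most covered, the 5 largest and 5 smallest called changes per comparison at a mean of at least 5 CPM, the 3 most covered of each list, the 5 largest called conversion differences per condition and the 3 highest DMSO rates. The members nearest to each threshold are named too. Ndufc2, Ndufa10, Uqcrb, Cox6c, Cox20, Atp5b, Mrpl58, Psma2, Pcp4, Aldoa, Slc3a1, Ldhb and Arpc3 fall outside this rule and were named after their values were seen.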

Additional observations from a re-analysis of the deposited data

Results flagged for a closer look

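Of 145 groups of 4 or 5 libraries examined for a lone library far from the rest (Dixon's 95% criterion), 14 held one, where chance alone would give about 1 in 20 groups. Acute DMSO replicate 2 accounted for 6. It had 1.75% of its reads in short intervals where the other acute DMSO libraries had 1.05 to 1.15%. It also stood apart for Mt1 (53.4 CPM), Mt2 (37.3), Mt3 (44.9), Nme7 (345) and Slc3a1 (62.8, the low side). Ptgds at its 119 bp interval was low in acute 4sU replicate 4 (6.90 CPM), Snurf at 42 bp was low in baseline DMSO replicate 1 (44.9 CPM), and Rmc1 was high in chronic 4sU replicate 1 (13.6 CPM).

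Among conversion rates per 10000 covered T, replicate 1 of a 4sU group stood above its group for Nr1d1 under chronic stress (205), for the 151 bp Snurf interval at baseline (24.7) and under acute stress (25.5), and for Ctss under acute stress (65.1). Fcer1g was at 17.6 in baseline DMSO replicate 2 and at 0 in the other baseline DMSO libraries.

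The chronic stress difference differed between injections in 141 short intervals (interaction term, edgeR, adjusted p under 0.05). This was 26.9% of short intervals, near the 25.9% of all intervals tested. The 4sU arm of this term crosses the 2 header series and the DMSO arm does not, so injection and series cannot be told apart in it.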

How the results depend on the processing

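Results are given as the percent of short intervals called. The share over all intervals in the same setting is not given here, so a shift shows no trait of short intervals. For acute stress averaged over injections (0.381%), exon counts gave 0.992%, a length limit of 200 bp 1.04% and leaving out the 5 libraries low in glutamatergic markers (chosen after seeing the data) 2.48%. In the acute 4sU arm (0.190%), exon counts, the most covered interval per gene and sole intervals free of other exons (chosen after seeing the data) gave 0, fitting the compared groups only 0.382% and the 200 bp limit 0.518%. In the acute DMSO arm (0.571%), library size alone and the compared groups only gave 0.190%, the most covered interval per gene 0.254%, sole intervals 0.369%, DESeq2 0.952%, the 200 bp limit 1.55%, exon counts 2.58% and leaving out the 5 libraries 7.43%, which also moved the acute interaction from 0 to 0.762%. Conversion at baseline (3.62%) gave 1.78% with the most covered interval per gene, 2.21% with sole intervals, 5.52% for reads with a conversion over reads, 6.74% at 200 bp and 24.7% at 100000 covered T or more. Under acute stress (5.33%) these were 3.05% per gene, 9.33% at 200 bp, 28.4% at 100000 and 3.25% without the 5 libraries. Under chronic stress (6.10%) they were 3.82% per gene, 3.69% with sole intervals, 9.33% at 200 bp and 39.5% at 100000. Precision of single rates is limited by the few conversions per member. The cause of these shifts was not tested, apart from the smaller set of members that the length, coverage and gene limits leave.

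Leaving out each library in turn gave 0.381 to 0.762% for acute stress averaged, 0.190% throughout with 4sU and 0.190 to 1.71% with DMSO. The chronic 4sU comparison gave 40.6 to 53.5%, the injection comparison at baseline 39.8 to 56.4% and the chronic interaction 20 to 35.0%. Conversion gave 2.48 to 3.63%, 4.00 to 6.48% and 4.38 to 6.67%. The chronic DMSO comparison, 4sU against DMSO under chronic stress and the acute interaction were 0 in each.

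With exon counts, Rmc1 turned to −0.40 in the chronic 4sU comparison, 0.37 for injection at baseline and −0.39 in the interaction. Cops9 under acute stress turned to −0.49 for reads with a conversion over reads. With exon counts 29.0% of called interactions were higher against 46.8% for intervals. Of 58 pairs of libraries with the same replicate number in different groups, 11 had deviations correlated above 0.1 (r from −0.41 to 0.33). Pairs with different numbers were not compared, so this does not settle whether the numbers pair libraries. The replicate block called 2, 1 and 4 members for acute stress (averaged, 4sU, DMSO), 235 in the chronic 4sU arm, 243 for injection at baseline, 131 in the chronic interaction, and 16, 21 and 34 for conversion. It called none in the comparisons with no call.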
